A study of Mus musculus with 6 samples.

Results

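Thymocyte stage surface genes were compared between Phf6 knockout (Phf6 KO) and Phf6 wild-type (Phf6 WT) T-ALL (acute lymphoblastic leukaemia of the T-cell lineage) in mice. The group holds 9 genes, chosen by name as coreceptors and surface proteins that mark the stages of T-cell development in the thymus: Cd4, Cd8a, Cd8b1, Cd24a, Cd69, Cd44, Thy1, Cd2 and Cd6. All 9 were found among the 23306 genes of the table, and all 9 passed the filter on low values. Both groups were isogenic T-ALL tumours on the C57BL/6 strain, harvested from bone marrow, with 3 samples each and polyA RNA sequenced. Phf6, which encodes a nuclear PHD finger protein, was deleted by a Cre recombinase whose expression is induced with tamoxifen, and the vehicle was corn oil, both injected intraperitoneally. Which agent each sample received is not stated, so an effect of tamoxifen itself was not tested. The labels name neither the promoter of the Cre, the oncogene behind the tumours, the age of the mice nor the time of harvest. They also leave unsaid whether replicates were different mice, so the p-values below reflect only the spread among these 6 samples, whose source is not stated. Each library has a number of its own in the table, with no word on what it stands for. Libraries of one group differed by more than counting noise, with a chi-square per degree of freedom of 12.9 to 56.7 over genes.

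Thymocytes are staged by what they carry on their surface. The earliest progenitors carry CD44 and KIT, then gain CD25 (Il2ra) while losing CD44, and later pass through a double positive stage with both CD4 and the CD8 alpha-beta dimer before one coreceptor is kept. CD24 is lost and CD69 is gained around positive selection, while THY1, CD2 and CD6 are carried by T-lineage cells over several stages. In T-ALL such genes are used to place a leukaemia at the stage at which its maturation stopped.

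Reads assigned to genes numbered 51011800 to 54953145 in the Phf6 WT libraries and 46067511 to 47110984 in the Phf6 KO libraries. Normalised reads are a gene's reads divided by the size factor of its library, and Phf6 itself had 4941 ± 645 of them in Phf6 WT and 1958 ± 329 in Phf6 KO (SD, n = 3 each), a ratio of 0.396. T-lineage RNA was abundant in every library. Levels in CPM are reads scaled to library totals that were adjusted by TMM, the trimmed-mean factors of edgeR. They are not scaled to the plain library totals. Together, Cd3d, Cd3e, Cd3g and Cd247 made up 1428 to 1529 CPM in Phf6 WT and 1280 to 1544 CPM in Phf6 KO. Cd247 was the 1 of the 4 that fell. Summed neutrophil markers were at 168 to 602 CPM in Phf6 WT and 1342 to 1778 CPM in Phf6 KO, with 10 of 22 markers called higher. Monocyte and macrophage markers were at 44.5 to 79.7 and 118 to 170 CPM (6 of 17 rose), and stem and progenitor markers at 26.1 to 44.7 and 73.1 to 88.2 CPM (10 of 11 rose). B-cell markers summed to 354 to 437 CPM in Phf6 WT and 277 to 349 CPM in Phf6 KO, a sum carried by Ighm, the 1 of 15 that fell, while 9 rose. Stromal and endothelial markers were at 1221 to 1260 and 1508 to 1842 CPM (2 of 6 rose and 1 fell), and NK-cell and dendritic-cell markers at 29.9 to 31.1 and 24.5 to 31.3 CPM (1 of 9 rose and 1 fell). The stromal sum was carried by Col1a2 and Pdgfrb. Beside these counts, 5.32% of all genes tested were called higher and 3.43% lower. Erythroid markers summed to 377 to 464 and 344 to 402 CPM, nearly all of it Tfrc, the transferrin receptor gene of dividing cells. None of the 13 tested was called, and 10 had positive log2 fold changes, as 48.3% of all genes tested did. Of the neutrophil and of the monocyte and macrophage markers, each had reads in every library, while 2 of 18 B-cell markers had none in at least 1. In bulk RNA, fewer cells of a type and less RNA per cell cannot be told apart.

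Of the 9 genes, Cd44 rose and Cd6 fell between Phf6 WT and Phf6 KO, and the other 7 did not pass the test (limma, Benjamini-Hochberg adjustment over 17993 genes, threshold 0.05). That is 2 of 9 called, against 8.75% of all genes tested, with 1 higher against 5.32% and 1 lower against 3.43%. edgeR called the same 2 genes (7.75% of all genes), and DESeq2 called these and Thy1 (12.4% of all genes). The values of the groups did not overlap for 4 genes: Cd44 was higher in all 3 Phf6 KO libraries, where 15% of all genes tested behaved so, and Cd6, Thy1 and Cd2 were lower in all 3, where 16.2% did. The median log2 fold change was -0.23 over the 9 genes and -0.01 over all genes tested, and 4 of the 9 had a positive value against 48.3% of all genes. Summed over the 9 genes, the level was 1949, 1945 and 1992 CPM in Phf6 WT libraries 1 to 3 and 1823, 1627 and 1640 CPM in Phf6 KO libraries 1 to 3, a sum in which Thy1 has the largest part.

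**Figure D1:**
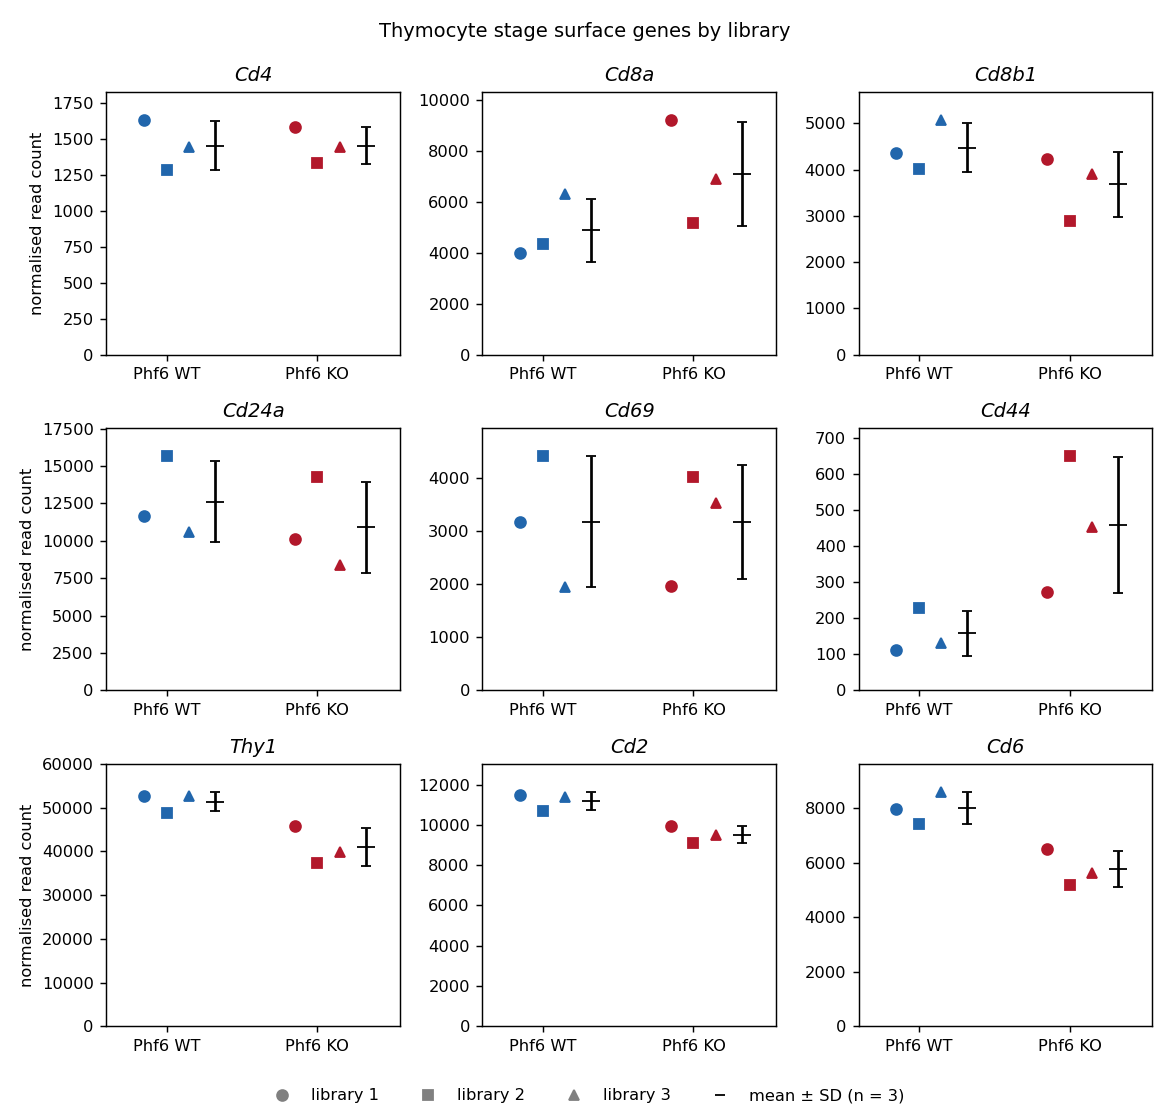
Normalised read count of each of the 9 genes by library (blue, Phf6 WT; red, Phf6 KO; the marker shape gives the library number; black bars, mean and SD, n = 3), each panel with its own linear axis from 0. The groups are apart for Cd44, Thy1, Cd2 and Cd6 and overlap for Cd4, Cd8a, Cd8b1, Cd24a and Cd69.

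Levels per transcript length, given as TPM (reads per kilobase of exon, scaled to the same sum in every library), set the genes in order. Thy1, a GPI-anchored glycoprotein of T cells, stood first at 994 ± 81.8 TPM in Phf6 WT (SD, n = 3) and ranked 122 among 23277 genes by its mean over all libraries. Cd2 (372 ± 29.5 TPM in Phf6 WT) and Cd24a (282 ± 48.0 TPM) followed, and in Phf6 KO they were at 330 ± 18.8 and 255 ± 64.7 TPM. Their SDs overlapped in Phf6 KO, so the order of this pair is not settled there. Cd8b1 came next, at 175 ± 26.5 TPM in Phf6 WT and 150.5 ± 30.2 TPM in Phf6 KO, and then Cd8a at 77.9 ± 21.5 and 118 ± 33.0 TPM, with SDs that overlapped in Phf6 KO only. The SDs of Cd8a and Cd6 (58.3 ± 6.3 TPM in Phf6 WT) overlapped in Phf6 WT but not in Phf6 KO, where Cd6 was at 43.9 ± 4.85 TPM. The SDs of Cd69 and Cd4 overlapped, and in Phf6 KO those of Cd69 and Cd6 did too, with Cd69 and Cd4 at 28.0 ± 9.86 and 20.9 ± 3.17 TPM in Phf6 WT and 29.4 ± 10.2 and 21.8 ± 1.97 TPM in Phf6 KO. Cd44 was last by a wide margin, at 1.34 ± 0.468 TPM in Phf6 WT and 4.10 ± 1.65 TPM in Phf6 KO, which placed it at the 44.9th percentile of all genes when averaged over libraries, while Cd4 was at the 71.3rd and the other 7 lay between the 76.3rd and the 99.5th.

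The coreceptors bind the invariant parts of MHC molecules beside the T cell receptor and bring the kinase LCK to it, CD4 with MHC class II and CD8 with class I. Cd4 (ENSMUSG00000023274; GRCm38 chromosome 6, 124864692 to 124888221, minus strand) had 1631, 1287 and 1443 normalised reads in Phf6 WT libraries 1 to 3 and 1586, 1333 and 1444 in Phf6 KO libraries 1 to 3. The groups had nearly the same mean, and the log2 fold change was 0.00 ± 0.11 (SE; 95% interval -0.25 to 0.26; limma adjusted p = 0.988). Lag3, the structural relative of Cd4 that lies 16.1 kb away on the same strand and was picked here for its position, was at a log2 fold change of 0.05 ± 0.11 (limma adjusted p = 0.832).

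Cd8a and Cd8b1 encode the alpha and beta chains of CD8. Alpha chains can pair with each other, whereas the beta chain reaches the surface only with an alpha chain. The genes lie 35.9 kb apart on the plus strand of chromosome 6, Cd8b1 (ENSMUSG00000053044) at 71322788 to 71337494 and Cd8a (ENSMUSG00000053977) at 71373427 to 71379173. Cd8a had 3993, 4345 and 6310 normalised reads in Phf6 WT libraries 1 to 3 and 9215, 5161 and 6912 in Phf6 KO libraries 1 to 3. The highest value was that of Phf6 KO library 1, and Phf6 WT library 3 lay above Phf6 KO library 2, so the groups overlapped. Its log2 fold change was 0.53 ± 0.26 (SE; 95% interval -0.11 to 1.16; limma adjusted p = 0.274). Cd8b1 had 4353, 4017 and 5068 reads in Phf6 WT and 4238, 2895 and 3917 in Phf6 KO. Here Phf6 KO library 2 was the lowest and the groups overlapped as well, with a log2 fold change of -0.29 ± 0.15 (95% interval -0.63 to 0.04; limma adjusted p = 0.255).

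Although neither chain passed the test, their ratio within a library separated the groups. In TPM, Cd8a stood to Cd8b1 as 0.374, 0.441 and 0.508 in Phf6 WT libraries 1 to 3 and as 0.887, 0.727 and 0.719 in Phf6 KO libraries 1 to 3. A ratio within a library does not depend on its size factor. The lowest Phf6 KO ratio was above the highest Phf6 WT ratio, and the group means, 0.441 ± 0.0668 and 0.778 ± 0.0944 (SD, n = 3 each), differed by 0.82 on the log2 scale or 1.77-fold. The two-sided exact permutation p was 0.1, the smallest that 3 samples against 3 allow, and 0.25 after Benjamini-Hochberg adjustment over the 5 ratios computed. Those ratios include Cd44 to Il2ra, a pair picked after its values were seen. Its p was fixed in advance, so the adjusted p is too small for the coreceptor ratios alone. Leaving out each library in turn gave log2 differences of 0.71 to 0.93. Cd4 relative to the sum of Cd8a and Cd8b1 showed no such separation, with 0.1, 0.0818 and 0.0695 in Phf6 WT and 0.0729, 0.0980 and 0.0789 in Phf6 KO (two-sided exact permutation p = 1.0). Cd4 relative to Cd8a alone was 0.281 ± 0.0819 in Phf6 WT and 0.192 ± 0.039 in Phf6 KO, and relative to Cd8b1 alone 0.120 ± 0.0166 and 0.148 ± 0.0189 (SD, n = 3 each), and for both ratios the groups overlapped.

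**Figure D2:**
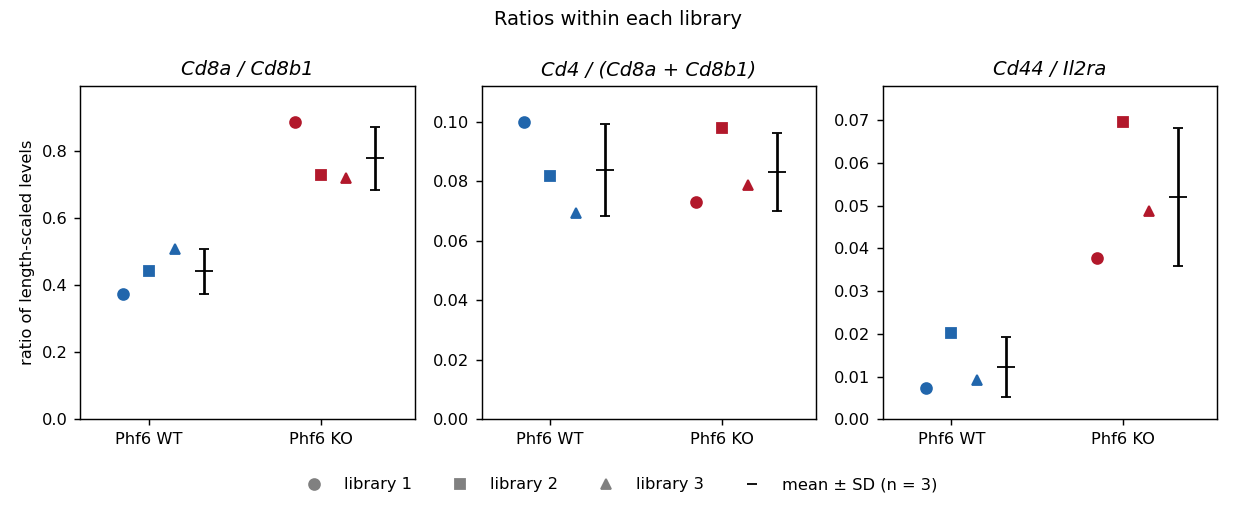
Ratios of length-scaled levels within each library for Cd8a over Cd8b1, Cd4 over the sum of both CD8 chains, and Cd44 over Il2ra (points, libraries; black bars, mean and SD, n = 3; linear axes from 0). Cd8a over Cd8b1 lies at 0.374 to 0.508 in Phf6 WT and 0.719 to 0.887 in Phf6 KO, and Cd4 over both CD8 chains overlaps between the groups.

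Promoter sequence was at hand for Cd8a and Cd44, 2 of the 9 genes, from RefSeq on GRCm38.p6, and these are the pair with the most positive log2 fold changes. The sequence shown for Cd8a is that of the 250 bases before its start, chr6:71373177-71373426 on the plus strand, with matches to the E-box CANNTG, the letters bound by basic helix-loop-helix factors, in capitals.
Cd8a: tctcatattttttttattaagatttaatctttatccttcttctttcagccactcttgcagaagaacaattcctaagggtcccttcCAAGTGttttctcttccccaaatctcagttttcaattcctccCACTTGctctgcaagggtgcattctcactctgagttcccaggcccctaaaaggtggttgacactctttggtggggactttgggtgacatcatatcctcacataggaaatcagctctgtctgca
Of all 32851 promoter windows of the same length, 66.2% hold such a match on either strand. GC bases make up 42.8% of the window, against a median of 52.4%, and it holds no CG pair. Both strands were also searched for the RUNX motif TGTGGT, held by 14.0% of all windows, the TCF/LEF motif CTTTGA (13.8%), the ETS motif GGAAGT (19.7%), the AP-1 motif TGANTCA (6.75%), the GC box GGGCGG (32.7%) and the TATA box TATAAA (12.4%), and none of these letters were in this window.

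Cd44, the hyaluronan receptor that marks the earliest thymic progenitors, memory T cells and many myeloid cells, had the largest change of the 9 genes. Cd44 (ENSMUSG00000005087; chromosome 2, 102811141 to 102901665, minus strand) had 112, 229 and 133 normalised reads in Phf6 WT libraries 1 to 3 and 274, 650 and 453 in Phf6 KO libraries 1 to 3. The lowest Phf6 KO library was above the highest Phf6 WT library, and library 2 was the highest of each group. It rose 2.91-fold in the means, with a log2 fold change of 1.51 ± 0.37 (SE; 95% interval 0.66 to 2.36; limma adjusted p = 0.046), and edgeR and DESeq2 also called it (adjusted p = 0.0346 and 4.14e-05). Leaving out any of Phf6 WT library 1, Phf6 WT library 3, Phf6 KO library 2 or Phf6 KO library 3 ended the call (limma adjusted p = 0.171, 0.165, 0.0706 and 0.160), with log2 fold changes of 1.22 to 1.48, and without the filter on low values the limma adjusted p was 0.0551. With library 2 of each group left out, it was called (log2 fold change 1.52; limma adjusted p = 0.00429). Scaled to equal summed Cd3d, Cd3e, Cd3g and Cd247, it had a log2 fold change of 1.63 and missed the threshold (limma adjusted p = 0.0673).

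Markers of myeloid cells and of stem and progenitor cells moved with Cd44. In Phf6 WT libraries 1 to 3, neutrophil markers summed to 168, 602 and 257 CPM and monocyte and macrophage markers to 58.8, 79.7 and 44.5 CPM, so library 2 was the highest for both, as it was for Cd44. In Phf6 KO libraries 1 to 3 the sums were 1584, 1778 and 1342 CPM for neutrophil markers and 118, 170 and 158 CPM for monocyte and macrophage markers. Cd44 was lowest in Phf6 KO library 1, as the monocyte and macrophage sum was, whereas the neutrophil sum was lowest in library 3. Stem and progenitor markers summed to 28.9, 44.7 and 26.1 CPM in Phf6 WT libraries 1 to 3 and 73.1, 88.2 and 86.1 CPM in Phf6 KO libraries 1 to 3, so the order in Phf6 KO was that of Cd44, and 3 of 14 of them had no reads in at least 1 library. The part of these cells in the rise of Cd44 was not tested. Relative to the sum of Cd3d, Cd3e, Cd3g and Cd247, Cd44 stood at 0.158%, 0.301% and 0.180% in Phf6 WT and 0.361%, 1.03% and 0.696% in Phf6 KO.

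**Figure D3:**
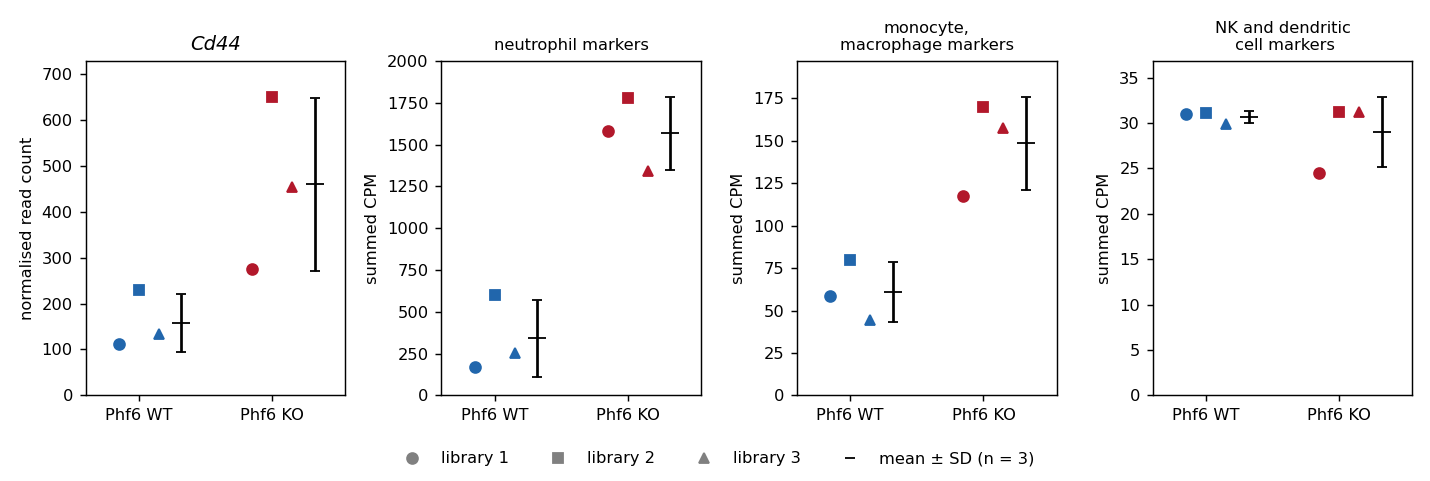
Normalised reads of Cd44 and summed CPM of neutrophil, of monocyte and macrophage, and of NK-cell and dendritic-cell markers by library (blue, Phf6 WT; red, Phf6 KO; black bars, mean and SD, n = 3; linear axes from 0). Cd44 and both myeloid sums are higher in every Phf6 KO library than in any Phf6 WT library, and the NK-cell and dendritic-cell sum, at 24.5 to 31.3 CPM, overlaps.

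The 250 bases before the start of Cd44, chr2:102901666-102901915 on the minus strand, are shown as well, since sequence was at hand for Cd8a and Cd44 only. None of the 7 motifs searched was found in the window, the E-box included, so no letter is in capitals.
Cd44: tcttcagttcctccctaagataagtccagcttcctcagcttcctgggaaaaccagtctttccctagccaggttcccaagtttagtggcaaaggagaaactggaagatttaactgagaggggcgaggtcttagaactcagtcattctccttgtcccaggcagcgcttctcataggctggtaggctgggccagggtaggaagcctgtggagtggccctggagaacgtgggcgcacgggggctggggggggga
GC bases make up 56.4% of this window, and it holds 5 CG pairs.

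CD44 and CD25, the latter encoded by Il2ra, together define the double negative stages, and they went opposite ways. Il2ra had 13038, 9544 and 12034 normalised reads in Phf6 WT libraries 1 to 3 and 6126, 7873 and 7828 in Phf6 KO libraries 1 to 3, without overlap (log2 fold change -0.66 ± 0.14 SE; limma adjusted p = 0.0212). The ratio of Cd44 to Il2ra in TPM was 0.00725, 0.0202 and 0.0093 in Phf6 WT and 0.0377, 0.0696 and 0.0488 in Phf6 KO. This pair was picked after its values were seen. Each gene separated the groups by itself, so the ratio had to separate them too, and no p is given for it. Il2ra stayed far above Cd44 in every library.

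Cd24a and Cd69 change around positive selection in the normal thymus. Cd24a, the gene of a small GPI-anchored sialoglycoprotein that is high on immature thymocytes (ENSMUSG00000047139; chromosome 10, 43578284 to 43584265, plus strand), had 11640, 15666 and 10561 normalised reads in Phf6 WT libraries 1 to 3 and 10106, 14260 and 8356 in Phf6 KO libraries 1 to 3. Library 2 was the highest in each group and the ranges overlapped widely. The log2 fold change was -0.23 ± 0.23 (SE; 95% interval -0.77 to 0.31; limma adjusted p = 0.592). Cd69, a C-type lectin that is induced by T cell receptor signals (ENSMUSG00000030156; chromosome 6, 129267325 to 129275436, minus strand), had 3174, 4402 and 1941 reads in Phf6 WT and 1955, 4004 and 3521 in Phf6 KO. The spread within each group exceeded any difference between them, with a log2 fold change of 0.01 ± 0.42 (95% interval -1.09 to 1.10; limma adjusted p = 0.993). The interval is the widest of the 9 genes.

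The order of the libraries for Cd69 recurred in other genes of the lists, of which 2 related ones were picked after their values were seen. S1pr1, the sphingosine 1-phosphate receptor that CD69 protein draws from the surface, had 719, 1328 and 277 reads in Phf6 WT libraries 1 to 3 and 383, 2233 and 1041 in Phf6 KO libraries 1 to 3. Nr4a1, an immediate early gene of T cell receptor signals, had 33936, 102687 and 16080 reads in Phf6 WT and 18560, 89370 and 26275 in Phf6 KO. For all of Cd69, S1pr1 and Nr4a1 the order was library 2, 1, 3 in Phf6 WT and 2, 3, 1 in Phf6 KO. Cd28, Ccr7, Klf2, Foxo1, Id3 and the monocyte marker Csf1r, also named after their values were seen, had this order too. The share of all genes with this order was not computed, so it is not shown to be particular to genes related to Cd69. Number-2 libraries stood apart for most of the 9 genes: they were the highest of both groups for Cd24a, Cd44 and Cd69 and the lowest of both for Cd4, Cd8b1, Cd2, Cd6 and Thy1. Over all genes tested, the number-2 library was the highest of both groups for 20.9% and the lowest of both for 18.7%. Replicate numbers are not said in the labels to mark a shared mouse or batch.

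Thy1, Cd2 and Cd6 are adhesion and signalling glycoproteins of the T lineage, and all had their 3 Phf6 KO values below their 3 Phf6 WT values. Cd6, a scavenger receptor family protein that docks signalling adaptors and binds ALCAM (ENSMUSG00000024670; chromosome 19, 10789341 to 10830058, minus strand), had 7985, 7432 and 8605 normalised reads in Phf6 WT libraries 1 to 3 and 6501, 5204 and 5637 in Phf6 KO libraries 1 to 3. It fell to 0.722 of the Phf6 WT mean, with a log2 fold change of -0.47 ± 0.10 (SE; 95% interval -0.70 to -0.25; limma adjusted p = 0.0208), and passed in edgeR and DESeq2 (adjusted p = 0.0333 and 0.00206). Its call ended without Phf6 WT library 1, Phf6 WT library 3, Phf6 KO library 2 or Phf6 KO library 3 (limma adjusted p = 0.0819, 0.0845, 0.0546 and 0.0956), with library totals as the scaling (0.0523 as limma adjusted p) and with libraries scaled to equal summed Cd3d, Cd3e, Cd3g and Cd247 (limma adjusted p = 0.107), where the log2 fold change was -0.35.

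Thy1 (ENSMUSG00000032011; chromosome 9, 44043384 to 44048579, plus strand) had 52689, 48819 and 52646 normalised reads in Phf6 WT libraries 1 to 3 and 45827, 37358 and 39971 in Phf6 KO libraries 1 to 3. Its log2 fold change was -0.33 ± 0.09 (SE; 95% interval, unadjusted, -0.54 to -0.12). It did not pass in limma or edgeR (adjusted p = 0.0588 and 0.0868) and passed in DESeq2 (adjusted p = 0.0343). Cd2, an adhesion receptor for CD48 in the mouse (ENSMUSG00000027863; chromosome 3, 101275899 to 101287939, minus strand), had 11499, 10671 and 11393 reads in Phf6 WT and 9930, 9081 and 9515 in Phf6 KO. The difference was small and the spread within groups smaller still, with SDs of 451 and 425 reads (n = 3 each), a log2 fold change of -0.23 ± 0.08 and an adjusted p of 0.0911 (limma). Relative to the summed Cd3d, Cd3e, Cd3g and Cd247 of the same library, Cd6 was 11.2%, 9.76% and 11.7% in Phf6 WT and 8.57%, 8.27% and 8.66% in Phf6 KO, and Thy1 was 74.1%, 64.1% and 71.4% against 60.4%, 59.4% and 61.4%, both without overlap. Cd2 overlapped on this scale, at 16.2%, 14.0% and 15.4% against 13.1%, 14.4% and 14.6%. The share of all genes without overlap on this scale was not computed. Scaling libraries to this sum moved the median log2 fold change of all genes to 0.11. The separation of Thy1 depended on the reference. With Ptprc in place of the sum Thy1 overlapped, and of the 9 genes 1 was higher and 1 lower without overlap. With Cd3e in its place, 2 were higher and 2 lower without overlap.

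**Figure D4:**
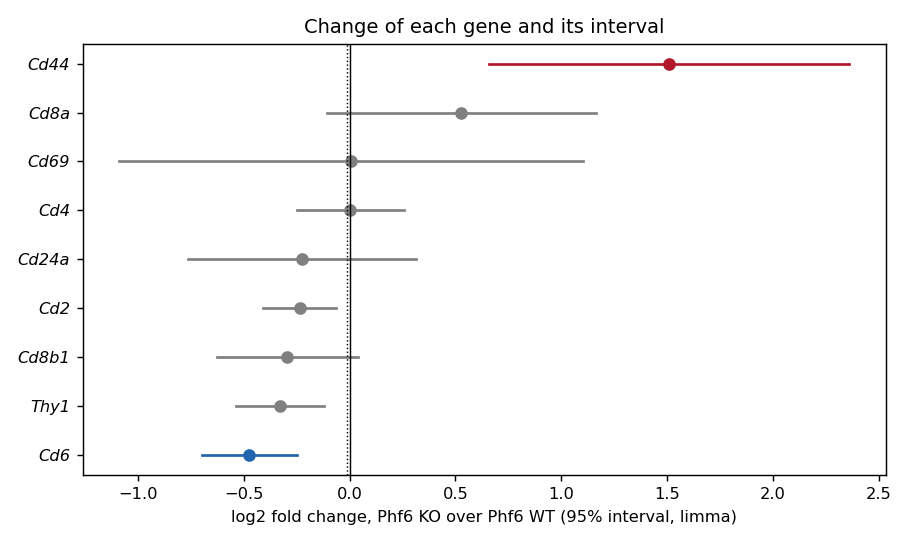
Log2 fold change of each of the 9 genes, Phf6 KO over Phf6 WT, with its unadjusted 95% interval from limma (red, rose; blue, fell; grey, not called; dotted line, median of all genes tested). Cd44 at 1.51 and Cd6 at -0.47 were called, and the interval is widest for Cd69.

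Partners of these proteins were read from a list of binding partners and adaptors, in which the median log2 fold change was 0.05, and of 25 tested genes 2 rose and 1 fell, where 8.75% of all genes tested were called in either direction. Alcam, the adhesion molecule that CD6 binds, fell together with Cd6, from 2858, 2235 and 2392 normalised reads in Phf6 WT libraries 1 to 3 to 1410, 1412 and 1347 in Phf6 KO libraries 1 to 3 (log2 fold change -0.84 ± 0.11 SE; limma adjusted p = 0.00346). Siglecg, a sialic acid binding lectin of B cells that recognises CD24, rose from 7.4 ± 3.0 to 55.8 ± 24.9 reads (SD, n = 3 each), and Spp1, osteopontin, a ligand of CD44, from 13.7 ± 5.7 to 49.2 ± 18.3. Both were scarce, and markers of B cells and myeloid cells rose beside them, as given above. The part of those cells was not tested. Lck, the kinase bound by CD4 and CD8 alpha, was abundant and lower in each Phf6 KO library, at 47314, 46989 and 46775 reads in Phf6 WT and 43048, 36969 and 38249 in Phf6 KO, and did not pass (log2 fold change -0.26 ± 0.08; limma adjusted p = 0.0876). Ezr and Msn, which link CD44 to the actin cortex, were at -0.27 ± 0.09 and -0.12 ± 0.09 and did not pass either.

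Of 29 other tested genes that mark thymocyte stages at the surface, 3 rose, where 5.32% of all genes tested did. Of the same 29, 2 fell, where 3.43% of all genes did, and the median log2 fold change was 0.09. Cd5, a relative of Cd6 that dampens T cell receptor signals, lies 50.3 kb from it on the same strand, and fell by nearly the same amount: 8387, 7753 and 9580 normalised reads in Phf6 WT libraries 1 to 3 and 6536, 5648 and 6164 in Phf6 KO libraries 1 to 3 (log2 fold change -0.48 ± 0.10 SE; limma adjusted p = 0.0179). On the other side of Cd6, Slc15a3, picked here for its position, was at 0.14 ± 0.17 (limma adjusted p = 0.667). Il2ra was the other gene that fell. Kit, the receptor of the earliest progenitors, rose from 10.01, 44.4 and 18.1 reads to 141, 141 and 187 (log2 fold change 2.81 ± 0.44; limma adjusted p = 0.00913), and like Cd44 it was scarce in every library. The chemokine receptor gene Ccr9, which guides progenitors and thymocytes, rose from 286, 251 and 235 reads to 667, 662 and 744 (1.42 ± 0.13; limma adjusted p = 0.00154). Cd38, an ectoenzyme of several leukocytes, rose from 44.0, 55.3 and 28.9 reads to 87.6, 185 and 183 (1.75 ± 0.34; limma adjusted p = 0.0152). Notch1 and Ptprc, among the genes of this list with the most normalised reads, did not pass, with log2 fold changes of -0.01 ± 0.11 and -0.17 ± 0.08.

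Of 23 tested regulators of the coreceptor genes, 5 fell, where 3.43% of all genes tested did, and 1 rose, where 5.32% did. Positive log2 fold changes were found for 6 of the 23, against 48.3% of all genes, and the median was -0.17 against -0.01. No test of the list was run. Zbtb7b, which encodes ThPOK, the factor of the CD4 lineage that represses Cd8 genes in the normal thymus, rose from 64.1, 91.8 and 50.6 normalised reads in Phf6 WT libraries 1 to 3 to 156, 185 and 221 in Phf6 KO libraries 1 to 3 (log2 fold change 1.45 ± 0.25 SE; limma adjusted p = 0.00942), a level low beside the other regulators. Runx1, which with its relatives silences Cd4 in immature thymocytes, fell from 12030, 10697 and 10740 reads to 9184, 6836 and 7072 (-0.55 ± 0.12; limma adjusted p = 0.0213), while Runx3, its counterpart in the CD8 lineage, named after its value was seen, was at 0.12 ± 0.16 and did not pass. Patz1, a zinc finger repressor that binds Cd8 regulatory elements, fell by 0.37 on the log2 scale (limma adjusted p = 0.0262), and the HMG box factor genes Tcf7 and Lef1 fell by 0.49 and 0.37 (limma adjusted p = 0.0191 and 0.0416). Chd4, a remodeller that acts at Cd4, fell by 0.34 (limma adjusted p = 0.0435). Ikzf1, with the most normalised reads of this list, was at -0.10 ± 0.08 and did not pass. Per transcript length Tcf7 stood above it, at 2164 TPM in Phf6 WT and 1604 TPM in Phf6 KO against 892 and 866 TPM. The calls of Lef1 and Chd4 were not made by edgeR (adjusted p = 0.0579 and 0.0619).

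**Figure D5:**
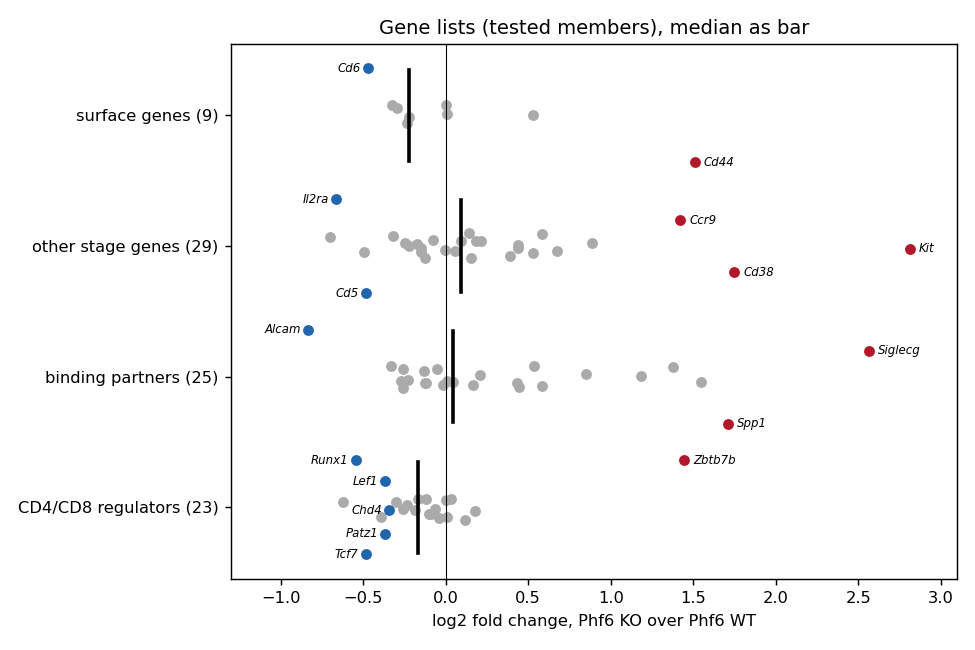
Log2 fold change, Phf6 KO over Phf6 WT, of the tested genes of 4 lists, 1 point per gene (red, rose; blue, fell; grey, not called; black bar, list median; vertical position within a list has no meaning). The medians are -0.23 for the 9 surface genes, 0.09 for other stage genes, 0.05 for binding partners and -0.17 for coreceptor regulators.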

How the data were processed

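PolyA RNA of 6 tumour samples was read from both ends (150 bp), per the labels' protocols. The submitters' processing notes name GRCm38, STAR 2.6.0a, bcl2fastq 1.8.4, DESeq2 and featureCounts; whether strand was used in counting is not stated. The authors deposited a signal per gene, here taken as counts over a size factor of each library because dividing by the smallest increment of a library gave whole reads for 100% of its entries (tolerance 0.01). Rows without an identifier, 8 in all, were not used (0.00106% of reads or less).

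The design assumed this unit, so limma 3.58.1 (R 4.3.3) was used on log2(value + 2), which understates the change of low genes, with trend and robust empirical Bayes, for genes at 10 or more in at least 3 libraries. Alternatives used edgeR 4.0.16 and DESeq2 1.42.0 on the recovered reads, other scalings, filters and pseudocounts, a replicate block and libraries left out. The procedure was tested on simulated counts. Ratios and sums used two-sided exact permutation tests (scipy 1.17.1). TPM used exon lengths of GENCODE M21, which held 23277 identifiers.

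The genes and lists were chosen with earlier results of these data known. Named genes were the 9 members and genes of the 3 lists of partners, other stage genes and regulators. Of each list these were up to 10 called genes and the 3 with the most normalised reads. The same rule allowed 4 genes of each marker list, which are given here as counts and sums. Genes named outside the rule are marked as such. Of the genes the rule names, 1 is not reported here.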

Additional observations from a re-analysis of the deposited data

How the results depend on the processing

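Over 17 alternatives the log2 fold change of Cd44 kept its direction (1.22 to 1.84), as did those of Cd6 (-0.56 to -0.35), Thy1 (-0.41 to -0.21), Cd2, Cd24a, Cd8b1 and Cd8a; Cd4 and Cd69, near 0, changed sign in 3 alternatives each without a call. Cd44 and Cd6 were each called in 11 of the 17, and Thy1 in 3. Of the 9 genes, 2 were called; this was 1 with library totals as the scaling, 1 without a filter on low values and 0 with libraries scaled to equal summed Cd3d, Cd3e, Cd3g and Cd247, and with 1 library left out it ranged from 0 to 3. Over all genes, 1575 were called, and 253 to 1941 with 1 library left out. The split between higher and lower calls was 957 and 618, against 1217 and 300 with library totals as the scaling. With libraries scaled to equal summed Cd3d, Cd3e, Cd3g and Cd247 it was 1065 and 107. Under these scalings, in that order, the median of all genes moved to 0.07 and 0.11. With the replicate number as a block 2568 genes were called (1459 higher, 1109 lower) and 3 of the 9, Thy1 being the addition (limma adjusted p = 0.0309). Deviations of same-numbered libraries from their group means correlated at 0.01, 0.50 and 0.14, and those of differently numbered libraries at -0.48 to 0.38. The number-2 libraries gave the highest of these values. The numbers were not taken to pair the samples, because the labels do not say what they share. Cd44, at 112 reads in its lowest library, is the gene that depth limits most.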
